A study of Homo sapiens with 8 samples.

Results

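Hypoxia-responsive genes were examined in cultures of Caco-2, an established line of human colorectal adenocarcinoma cells that forms an enterocyte-like monolayer when it is kept at confluence. The set was given by name and consists of 10 genes: HIF1A, EPAS1, EGLN1, EGLN3, VEGFA, ADM, BNIP3, NDRG1, ANKRD37 and CA9. A gene counted as measured when a probe set of the array carried its symbol and no other, and where several did, the one with the highest mean level was used. That held for 8 of the 10 genes, out of 22392 genes measured in all. The probe set of BNIP3 carried 2 symbols, and CA9 was not matched to any probe set, so neither has a value here. The gut-on-chip group comprised 4 samples grown for 21 days. After the cells had attached to the membrane without flow, it was kept in a glass microfluidic device for the remaining time. Medium flowed there continuously at 100 µL/h on both sides of the membrane, with a shear stress of about 0.002 dyne/cm2. The Transwell group comprised 4 samples grown for 21 days on inserts of 1.12 cm2 without flow, with medium replaced every few days. Both groups were seeded at 75000 cells per cm2 in the same serum-containing medium, and each sample was hybridised to its own Affymetrix whole-transcript array. Flow, device and medium supply differed together between the groups and cannot be told apart. Oxygen in the cultures was not analysed here. The labels give a range of passages for all samples without assigning one to each, and nothing states that the 4 samples of a group came from separate experiments, so every FDR rests on the spread among these 8 arrays alone and that spread may be technical.

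Cells sense oxygen mainly through the hypoxia-inducible factors (HIFs). Each HIF pairs an alpha subunit, HIF-1α from HIF1A or HIF-2α from EPAS1, with the stable subunit ARNT. While oxygen is plentiful, the prolyl hydroxylases of the EGLN family mark the alpha subunits for recognition by VHL and for degradation. When oxygen falls the alpha subunits accumulate, enter the nucleus and bind short elements near their target genes. The mucosal epithelium of the gut lies along a steep oxygen gradient, and HIFs there are known for supporting barrier, metabolic and iron transport genes. The alpha subunits are governed chiefly by protein stability, which an RNA array does not measure.

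The core of a HIF binding element reads ACGTG or GCGTG, and the 250 bases before the annotated start were searched for both, on both strands. RefSeq (GRCh38.p14) gave this stretch for 6 of the 8 measured genes, and VEGFA and NDRG1 were not matched. Over 27305 promoters of this length, 18.7% held ACGTG, 31.9% held GCGTG and 43.1% held either. The promoters shown are those of the genes that changed and had an entry, and that of ANKRD37, which had the most matches among measured genes. Each runs 5′ to 3′ toward the start site, and capitals mark the matches.
ADM (chr11:10304823-10305072, plus strand): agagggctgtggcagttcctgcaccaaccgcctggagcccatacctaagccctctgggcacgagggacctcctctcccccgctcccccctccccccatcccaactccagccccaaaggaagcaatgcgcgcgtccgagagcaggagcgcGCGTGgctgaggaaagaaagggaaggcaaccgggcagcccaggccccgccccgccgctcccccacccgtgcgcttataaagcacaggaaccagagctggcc
EPAS1 (chr2:46297157-46297406, plus strand): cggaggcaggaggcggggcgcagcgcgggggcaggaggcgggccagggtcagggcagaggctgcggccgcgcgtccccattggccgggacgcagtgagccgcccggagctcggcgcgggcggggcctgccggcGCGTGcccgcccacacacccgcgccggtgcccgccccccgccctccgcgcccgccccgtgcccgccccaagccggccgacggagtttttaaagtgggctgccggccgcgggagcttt
EGLN1 (chr1:231422288-231422537, minus strand): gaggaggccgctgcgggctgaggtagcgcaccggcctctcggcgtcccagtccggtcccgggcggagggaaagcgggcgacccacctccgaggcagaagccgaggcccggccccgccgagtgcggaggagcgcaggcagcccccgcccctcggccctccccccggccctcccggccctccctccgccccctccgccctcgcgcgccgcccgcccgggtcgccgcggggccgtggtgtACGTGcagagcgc
ANKRD37 (chr4:185396591-185396840, plus strand): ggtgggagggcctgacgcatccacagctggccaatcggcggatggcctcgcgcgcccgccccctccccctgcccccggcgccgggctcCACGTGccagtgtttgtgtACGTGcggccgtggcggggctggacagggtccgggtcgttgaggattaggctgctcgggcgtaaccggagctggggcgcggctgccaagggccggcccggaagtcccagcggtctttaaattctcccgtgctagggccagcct
ADM and EPAS1 each held a single GCGTG, which lay 101 to 97 bases before the start in ADM and 117 to 113 bases before it in EPAS1. EGLN1 held ACGTG 13 to 9 bases before its start. ANKRD37 held 3 matches to ACGTG, of which 2 overlap on opposite strands as CACGTG. HIF1A held GCGTG 204 to 200 bases before its start, and the window of EGLN3 held neither. A match says only that these letters occur in the window.

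Of the 8 measured genes, 2 were upregulated in the gut-on-chip, 3 were downregulated and 3 did not pass an FDR of 0.01. The upregulated genes were ADM and EPAS1, and the downregulated ones NDRG1, VEGFA and EGLN1. HIF1A, EGLN3 and ANKRD37 did not pass. None of the 8 changed by as much as 1 on the log2 scale, and their log2FC values lay between -0.82 and 0.73, with a median of -0.09 against 0.01 over all genes. For comparison, 15.8% of all genes passed the same test, 8.72% upward and 7.06% downward. Over all probe sets, unnamed ones included, the shares were 9.56% in all, 5.16% upward and 4.41% downward. Among the 8331 genes with a mean level of at least 5, as 7 of the 8 had, 34% passed. Arrays of the groups did not overlap for 6 of the 8, where 30.7% of all genes and 56.3% of those with a mean level of at least 5 showed no overlap. RNA came from a whole membrane, so fewer cells with a transcript and less of it per cell cannot be told apart. Levels are log2 values made by the authors with RMA, and a difference in level between genes also reflects the brightness of their probes.

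**Figure D1:**
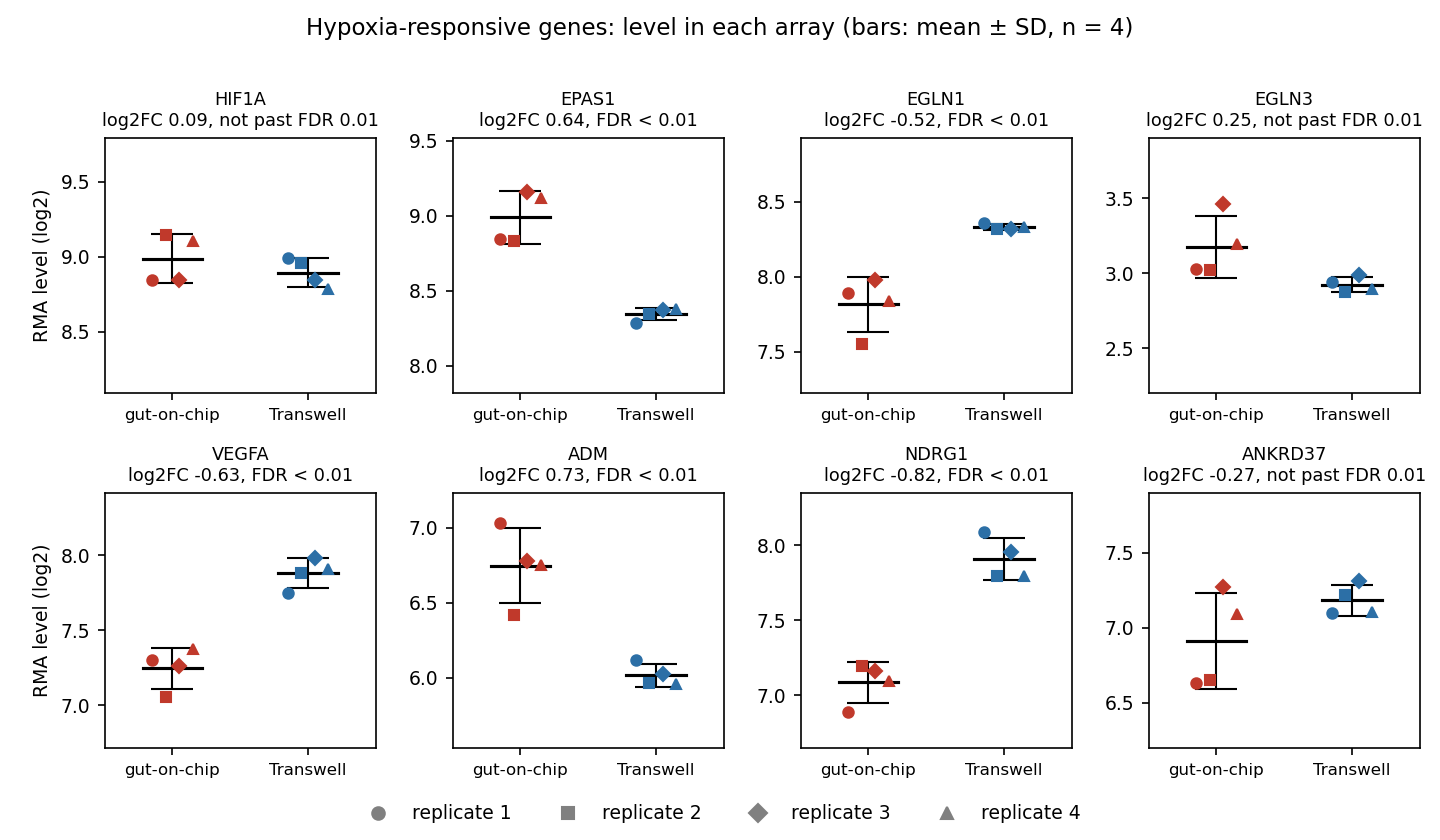
Level (log2, RMA) of each of the 8 measured genes in every array, with gut-on-chip arrays in red on the left and Transwell arrays in blue on the right of each panel. Symbols mark the replicate number, horizontal bars the mean and whiskers the SD (n = 4), and every panel spans the same range on the log2 scale. The arrays of the groups overlap for HIF1A and ANKRD37 and are apart for the other 6 genes, by only 0.03 for EGLN3.

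Of the alpha subunit genes, EPAS1 passed the test and HIF1A did not. EPAS1 had levels of 8.85, 8.83, 9.16 and 9.12 in the gut-on-chip and of 8.28, 8.34, 8.37 and 8.38 in the Transwell inserts. Every gut-on-chip array lay above every Transwell array, and within the gut-on-chip replicates 3 and 4 lay above replicates 1 and 2. The means were 8.99 ± 0.17 in the gut-on-chip against 8.34 ± 0.04 in the Transwell inserts (SD, n = 4 each), a 1.56-fold increase (log2FC = 0.64, SE 0.09, 95% interval 0.45 to 0.84, FDR = 7.34e-04 from limma). The call held with each array left out and under all the other settings tried.

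HIF1A had levels of 8.84, 9.15, 8.85 and 9.10 in the gut-on-chip and of 8.99, 8.95, 8.84 and 8.79 in the Transwell inserts. The arrays of the groups were intermixed, with the lowest value in a Transwell array and the highest in a gut-on-chip array. The log2FC was 0.09 (SE 0.09, 95% interval -0.11 to 0.29, FDR = 0.616 from limma), so a change of the size seen for EPAS1 lay outside the interval. A second probe set of HIF1A was dim, with levels of 4.02, 3.68, 2.56 and 3.58 in the gut-on-chip and of 3.58, 3.85, 3.64 and 3.95 in the Transwell inserts. It had a log2FC of -0.29 (FDR = 0.612 from limma), with the groups again overlapping. Whether the changes of EPAS1 and HIF1A differ from each other was not tested.

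The EGLN genes encode the oxygen-dependent hydroxylases, of which EGLN1 is the main sensor under normal oxygen and both EGLN1 and EGLN3 are themselves HIF targets. EGLN1 had levels of 7.89, 7.55, 7.98 and 7.83 in the gut-on-chip and of 8.35, 8.32, 8.32 and 8.33 in the Transwell inserts. The Transwell arrays were nearly identical, whereas the gut-on-chip arrays spread over 0.43, with replicate 2 lowest. EGLN1 was downregulated 1.43-fold (7.81 ± 0.18 in the gut-on-chip against 8.33 ± 0.02 in the Transwell inserts, SD, n = 4 each, log2FC = -0.52, FDR = 0.00365 from limma, SE 0.09). This call was the least firm of the 5. The FDR was 0.0154 with limma without a trend and at most 0.0141 when 1 array was left out, and the call was lost without any of the 4 Transwell arrays or without gut-on-chip replicate 4.

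EGLN3 was dim, with levels of 3.03, 3.02, 3.46 and 3.20 in the gut-on-chip and of 2.94, 2.87, 2.99 and 2.90 in the Transwell inserts, not far above the array medians of 2.46 to 2.49. The groups were separated by 0.03, less than the spread within either. The log2FC of EGLN3 was 0.25 (SE 0.16, 95% interval -0.11 to 0.61, FDR = 0.393 from limma). Gut-on-chip replicate 3 held the highest value for EGLN3, as it did for EPAS1 and EGLN1.

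VEGFA and ADM encode secreted vascular factors, the endothelial growth factor VEGF-A and the vasodilating peptide adrenomedullin. Both are classical targets of hypoxia, and they moved in opposite directions. VEGFA had levels of 7.30, 7.05, 7.26 and 7.37 in the gut-on-chip and of 7.75, 7.88, 7.98 and 7.91 in the Transwell inserts. All gut-on-chip arrays lay below all Transwell arrays, with a distance of 0.37 between the nearest. VEGFA was downregulated 1.55-fold (7.25 ± 0.14 in the gut-on-chip against 7.88 ± 0.10 in the Transwell inserts, SD, n = 4 each, log2FC = -0.63, SE 0.09, 95% interval -0.84 to -0.43, FDR = 9.19e-04 from limma). No setting ended the call.

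ADM had levels of 7.03, 6.42, 6.78 and 6.75 in the gut-on-chip and of 6.12, 5.96, 6.03 and 5.96 in the Transwell inserts. Replicate 1 was the highest and replicate 2 the lowest of the gut-on-chip arrays, and the lowest was still 0.30 above the highest Transwell array. ADM was upregulated 1.66-fold (6.75 ± 0.25 in the gut-on-chip against 6.02 ± 0.08 in the Transwell inserts, SD, n = 4 each, log2FC = 0.73, SE 0.13, 95% interval 0.45 to 1.01, FDR = 0.00295 from limma). It was the largest increase of the set. Leaving out 1 array gave a log2FC of ADM between 0.63 and 0.84. The FDR of ADM then reached 0.0116, and the call was lost without Transwell replicate 2, 3 or 4 or gut-on-chip replicate 4.

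NDRG1 encodes a cytoplasmic stress-response protein whose RNA is a common marker of hypoxia in tumours. It had levels of 6.89, 7.19, 7.16 and 7.10 in the gut-on-chip and of 8.09, 7.80, 7.95 and 7.80 in the Transwell inserts. The groups were 0.60 apart at their nearest arrays, the widest separation of the set, and each spread over about 0.30. NDRG1 was downregulated 1.77-fold (7.09 ± 0.14 in the gut-on-chip against 7.91 ± 0.14 in the Transwell inserts, SD, n = 4 each, log2FC = -0.82, SE 0.10, 95% interval -1.04 to -0.60, FDR = 3.17e-04 from limma). The call held under every setting tried, with the log2FC of NDRG1 between -0.86 and -0.76.

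ANKRD37, a small ankyrin-repeat protein gene that HIF-1 induces, had levels of 6.63, 6.65, 7.27 and 7.09 in the gut-on-chip and of 7.10, 7.22, 7.31 and 7.10 in the Transwell inserts. Gut-on-chip replicates 1 and 2 lay well below all Transwell arrays, replicate 4 lay just below them and replicate 3 within their range. The log2FC of ANKRD37 was -0.27 (SE 0.15, 95% interval -0.60 to 0.06, FDR = 0.294 from limma), and it lay between -0.39 and -0.18 with 1 array left out.

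**Figure D2:**
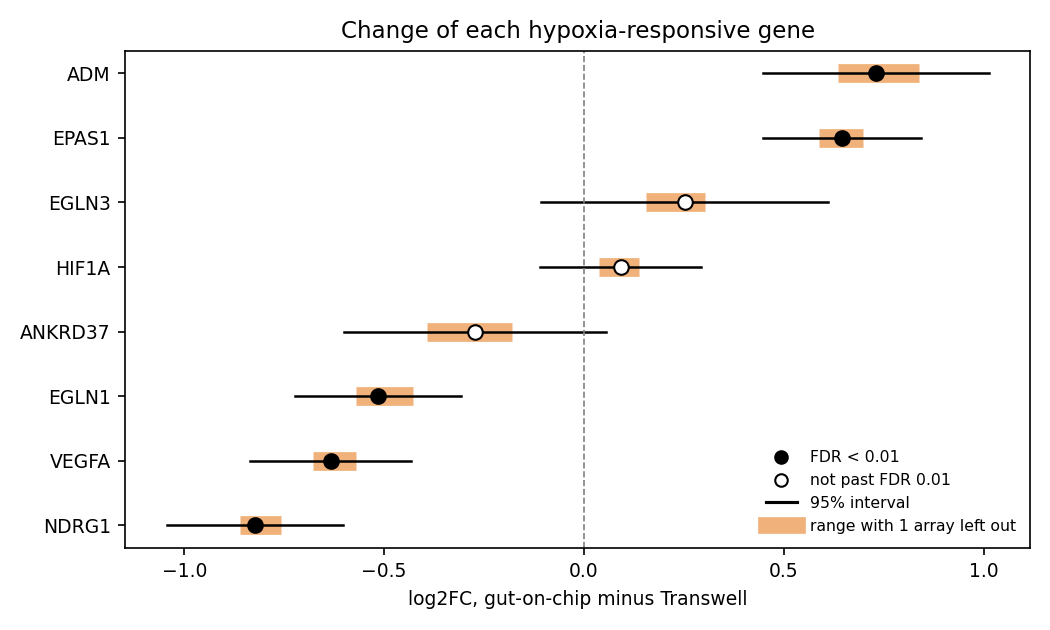
Change of each measured gene as log2FC, gut-on-chip minus Transwell. Circles are the estimates, filled where the FDR was under 0.01, black lines the 95% intervals and orange bars the range when 1 of the 8 arrays was left out. ADM and EPAS1 lie above 0, EGLN1, VEGFA and NDRG1 below it, and the intervals of HIF1A, EGLN3 and ANKRD37 cross 0.

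Variation among the gut-on-chip arrays was larger than among the Transwell arrays for 7 of the 8 genes, NDRG1 being the exception. The median SD of the 8 genes was 0.18 in the gut-on-chip against 0.09 in the Transwell inserts. The same direction was found for 72.3% of the genes with a mean level of at least 5, whose median SD was 0.16 in the gut-on-chip against 0.10 in the Transwell inserts. Replicate 3 was the highest gut-on-chip array for EPAS1, EGLN1, EGLN3 and ANKRD37, replicate 1 for ADM, replicate 2 for HIF1A and NDRG1, and replicate 4 for VEGFA. Replicate 2 was the lowest for EPAS1, EGLN1, EGLN3, VEGFA and ADM.

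Profiles most like those of the largest increase and the largest decrease were sought among all genes, by the root mean square difference between levels centred on each gene's mean over the 8 arrays. Nearest to ADM were the DNA repair endonuclease gene ERCC4 (difference 0.06 on the log2 scale), RNF14 (0.08) and the transcription factor gene STAT3 (0.08). Their log2FC values were 0.70, 0.75 and 0.73. Nearest to NDRG1 were OBI1 (0.06), NFYC-AS1 (0.07) and ZC3H18-DT (0.08), with log2FC values of -0.79, -0.77 and -0.90. The last pair was dim, with means of 2.35 and 2.55 in the gut-on-chip and of 3.13 and 3.45 in the Transwell inserts, and the call of NFYC-AS1 was lost in 7 of 8 cases when 1 array was left out.

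Of the regulators that act with the HIF subunits, 9 were measured. None was upregulated and 1 was downregulated, and EGLN2 had no probe set of its own. That is 11.1% called, against 15.8% of all genes and 34% of those with a mean level of at least 5. All measured regulators except HIF3A and ARNT2 had such levels. P4HTM, a transmembrane prolyl hydroxylase gene, was the downregulated one. It had levels of 5.08, 5.16, 5.12 and 5.04 in the gut-on-chip and of 6.08, 5.97, 6.15 and 5.87 in the Transwell inserts. The groups were far apart relative to their spread (log2FC = -0.92, FDR = 2.28e-04 from limma, SE 0.10). ARNT, the partner of both alpha subunits, had levels of 7.81, 7.53, 7.62 and 7.73 in the gut-on-chip and of 7.94, 8.07, 8.02 and 8.01 in the Transwell inserts. Its arrays did not overlap, yet its FDR of 0.0156 missed the threshold (log2FC = -0.34, SE 0.08, from limma). When only probe sets with 1 symbol were tested, the FDR of ARNT was 0.00544. The log2FC was -0.13 for VHL (FDR = 0.569), -0.07 for HIF1AN, the asparagine hydroxylase that blocks coactivator binding (FDR = 0.736), and 0.18 for CITED2, a HIF-induced competitor for the same coactivator (FDR = 0.388). The ubiquitin ligase genes SIAH1 and SIAH2, which target hydroxylases of the EGLN family, had log2FC values of 0.04 (FDR = 0.886) and 0.32 (FDR = 0.139). HIF3A (0.01, FDR = 0.988) and ARNT2 (-0.08, FDR = 0.857) also did not pass, and ARNT2 was below the array medians.

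A wider list of 94 other genes of the hypoxia response, grouped by role, was chosen with earlier results of these data known. Its shares called, and those of its role groups, are thus descriptions and no independent test. Of the 94 genes, 87 were measured. Of these 10 were upregulated, 25 downregulated, and 52 did not pass, which is 40.2% called, against 15.8% of all genes. Of the 69 with a mean level of at least 5, 8 were upregulated and 24 were downregulated, which is 46.4% called, against 34% of all genes at such levels. The median log2FC was -0.09, against 0.01 over all genes and 0.08 over those with a mean level of at least 5. Downward calls outnumbered upward ones in the list, whereas among all genes 8.72% passed upward and 7.06% downward. Among genes with a mean level of at least 5 the shares were 19% and 15%. The upward lean of the background depended on normalization. After quantile normalization again, upward and downward calls over all probe sets were nearly even, with slightly more downward. Downward calls still outnumbered upward ones in the list under that setting. At an FDR under 0.05, 16 were upregulated and 28 were downregulated. Calls over all probe sets, unnamed ones included, then rose as well, from 5128 to 8259, with 4510 upward and 3749 downward. The share of all genes passing at 0.05 was not computed, so the counts of the list at 0.05 have no matched background.

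**Figure D3:**
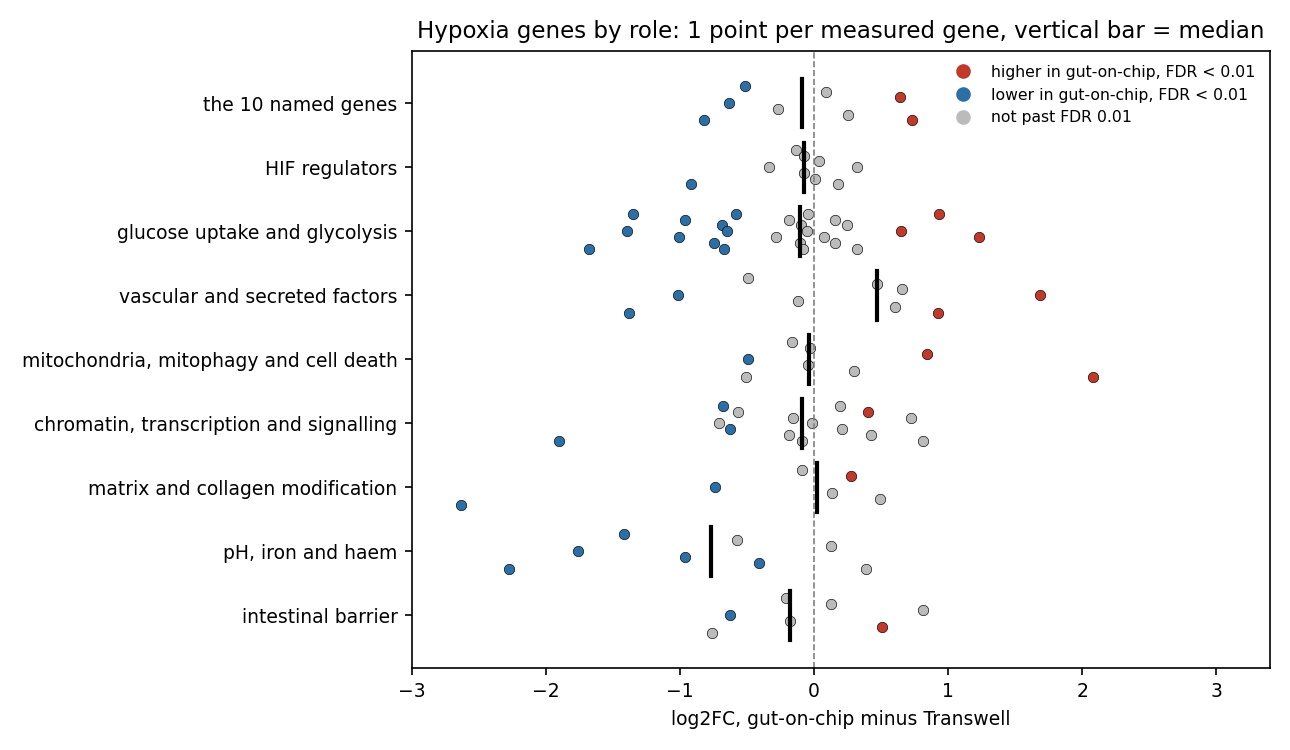
log2FC, gut-on-chip minus Transwell, of every measured hypoxia gene by role, with the 10 named genes in the top row (8 measured). Points are genes, red for an increase and blue for a decrease that passed an FDR of 0.01 and grey otherwise, and vertical bars are the median of each row. Red and blue points occur in every row except the HIF regulators and the genes of pH, iron and haem, which have no red point.

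Genes grouped under glucose uptake and glycolysis, processes that HIF-1 raises as cells turn from respiration to lactate, were called in both directions. Of 25 measured, 3 were upregulated, 10 downregulated, and 12 did not pass, with a median log2FC of -0.10. That is 52% called, against 15.8% of all genes and 34% of those with a mean level of at least 5. The group also held genes of glycogen synthesis and the PDK genes, so its counts are not those of glycolytic enzymes alone. Its downward calls included PGM1, GBE1 and GYS1 of glycogen synthesis and the glycolytic genes PFKL, ALDOC, TPI1 and ENO1. The glycolytic genes ALDOA, GAPDH, PGK1, PGAM1, PKM and LDHA did not pass. All of these were named after their values were seen. PDK1 and PDK3 encode kinases that inhibit pyruvate dehydrogenase. PDK3 had levels of 5.36, 5.27, 5.71 and 5.37 in the gut-on-chip and of 7.03, 7.01, 7.15 and 7.26 in the Transwell inserts (log2FC = -1.68, FDR = 1.09e-05 from limma, SE 0.12). PDK1 had a log2FC of -1.40 (FDR = 5.74e-05), and its gut-on-chip arrays lay between 7.56 and 8.16, all below the Transwell arrays at 9.08 to 9.27. Upward went HK1, the gene of a hexokinase (log2FC = 1.23, FDR = 6.98e-05 from limma), and PFKFB3, whose product makes the activator of phosphofructokinase (0.93, FDR = 0.00111). GPI, named for its signal among the genes that did not pass, had a log2FC of -0.10 (FDR = 0.358). The third upregulated gene, named after its values were seen, was the glucose transporter gene SLC2A1, with a log2FC of 0.65 (FDR = 1.34e-04 from limma).

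Among vascular and secreted factors, 2 were upregulated, 2 downregulated, and 5 did not pass, of 9 measured, and the median log2FC was 0.47. The share called was 44.4%, against 15.8% of all genes and 34% of the brighter ones, those with a mean level of at least 5. EDN1, the gene of the vasoconstrictor endothelin, had levels of 8.33, 8.13, 7.80 and 8.09 in the gut-on-chip and of 6.36, 6.35, 6.49 and 6.40 in the Transwell inserts (log2FC = 1.69, FDR = 7.42e-06 from limma, SE 0.11). The erythropoietin gene EPO, the best known HIF-2 target in kidney and liver, went down. It had levels of 3.48, 3.53, 3.61 and 3.44 in the gut-on-chip and of 5.02, 4.87, 4.66 and 5.04 in the Transwell inserts (log2FC = -1.38, FDR = 1.30e-04 from limma, SE 0.14). STC2, a secreted glycoprotein gene, was also downregulated (-1.02, FDR = 0.00272), and its call was lost without Transwell replicate 2 (FDR = 0.011). FLT1, a VEGF receptor gene, had a log2FC of 0.92 (FDR = 0.00828). It was dim, with a mean of 3.31 in the gut-on-chip and of 2.39 in the Transwell inserts, the latter below the array medians. The call of FLT1 was lost in 7 of 8 cases with 1 array left out, and its FDR was 0.0114 after quantile normalization again. PDGFB did not pass (0.60, FDR = 0.0305), but its FDR was 0.00945 when only probe sets with 1 symbol were tested and 0.00901 with all probe sets of a gene averaged.

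Genes of mitochondria, mitophagy and cell death had 8 measured members, of which 2 were upregulated, 1 downregulated, and 5 did not pass, with a median log2FC of -0.04. The share called, 37.5%, was near the 34% of the brighter genes and above the 15.8% of all genes. PMAIP1, a BCL2-family gene that promotes cell death and is also induced by p53, had the largest increase of the wider list (log2FC = 2.08, FDR = 4.51e-05 from limma, SE 0.18). HIGD1A, which encodes a protein of the inner mitochondrial membrane, was upregulated (0.84, FDR = 2.59e-05), with gut-on-chip arrays at 11.58, 11.37, 11.52 and 11.30 and Transwell arrays at 10.54, 10.61, 10.59 and 10.65. BNIP3L, the mitophagy receptor gene related to BNIP3, was downregulated (-0.49, FDR = 0.00279). Its call was lost with limma without a trend (FDR = 0.018) and without Transwell replicate 2, 3 or 4 or gut-on-chip replicate 4. LONP1, a mitochondrial protease gene, did not pass (0.30, FDR = 0.113).

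For chromatin, transcription and signalling, 1 gene was upregulated, 3 downregulated, and 11 did not pass, of 15 measured, with a median log2FC of -0.09. The 26.7% called lay between the 15.8% of all genes and the 34% of the brighter ones. INSIG2, which retains the sterol sensor in the endoplasmic reticulum, had levels of 7.42, 7.55, 7.81 and 7.81 in the gut-on-chip and of 9.53, 9.47, 9.61 and 9.61 in the Transwell inserts (log2FC = -1.91, FDR = 1.91e-06 from limma, SE 0.10). RAB20, a small GTPase gene, was downregulated (-0.68, FDR = 0.00202), and ERO1A, which drives disulfide formation, was upregulated (0.40, FDR = 0.00148, and 0.0215 with limma without a trend). WSB1, named by its signal among the genes that did not pass, had a log2FC of -0.15 (FDR = 0.185).

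Collagen-modifying genes comprised the largest decrease of the wider list. LOX, the gene of the crosslinking enzyme lysyl oxidase, had levels of 7.09, 6.93, 7.49 and 6.86 in the gut-on-chip and of 9.62, 9.69, 9.86 and 9.71 in the Transwell inserts. The groups were more than 2 apart on the log2 scale at their nearest arrays (log2FC = -2.63, FDR = 1.63e-06 from limma, SE 0.13). PLOD2, a lysyl hydroxylase gene, was downregulated too (-0.74, FDR = 1.05e-05). P4HA1, a collagen prolyl hydroxylase gene, was upregulated by 0.28 (FDR = 0.00561), and its call was lost with limma without a trend (FDR = 0.0821) and in 6 of 8 cases with 1 array left out. Of the 6 measured genes 1 was upregulated, 2 downregulated, and 3 did not pass, or 50% called against 15.8% of all genes and 34% of the brighter ones. PLOD1 did not pass (0.14, FDR = 0.702), but without gut-on-chip replicate 1 its log2FC was 0.34 (FDR = 0.00899).

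**Figure D4:**
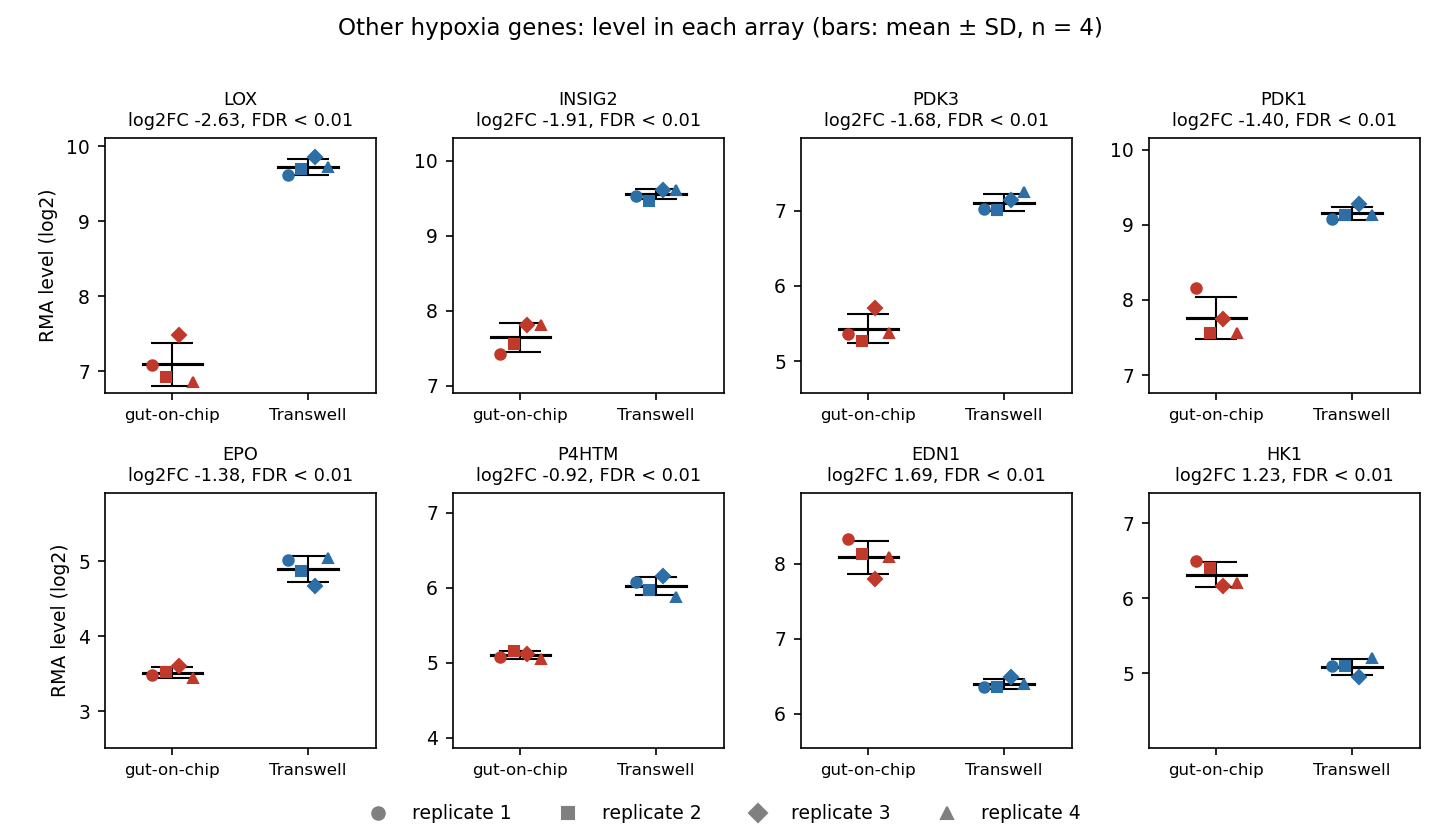
Level (log2, RMA) in every array of 8 other hypoxia genes described in the text, gut-on-chip in red on the left and Transwell in blue on the right of each panel. Symbols mark the replicate number, bars the mean and whiskers the SD (n = 4), and all panels span the same range. LOX, INSIG2, PDK3, PDK1, EPO and P4HTM are lower and EDN1 and HK1 higher in all 4 gut-on-chip arrays.

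Of 8 measured genes of pH, iron and haem, 5 were downregulated, 3 did not pass and none was upregulated, and the median log2FC was -0.77. The share called downward was 62.5%, against 7.06% of all genes and 15% of the brighter ones. SLC11A2 encodes the apical iron importer, which HIF-2 induces in the duodenum of mice. It had levels of 8.72, 8.88, 8.98 and 8.59 in the gut-on-chip and of 11.07, 11.03, 11.15 and 11.04 in the Transwell inserts (log2FC = -2.28, FDR = 2.99e-07 from limma, SE 0.08). The transferrin gene TF was also downregulated (-1.76, FDR = 6.27e-04). The other 3, named after their values were seen, were the ceruloplasmin gene CP (-1.41), the iron exporter gene SLC40A1 (-0.96) and the transferrin receptor gene TFRC (-0.41). CA12, a membrane carbonic anhydrase gene, had a log2FC of -0.57 (FDR = 0.17), with levels of 6.71, 7.99, 7.85 and 7.62 in the gut-on-chip and of 7.89, 8.35, 8.05 and 8.18 in the Transwell inserts. Replicate 1 was the low array of the gut-on-chip, and without it the log2FC of CA12 was -0.30 (FDR = 0.185).

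Of 7 barrier genes that HIF is known to induce in intestinal epithelial cells, 1 was upregulated, 1 downregulated, and 5 did not pass, with a median log2FC of -0.18. The share called was 28.6%, against 15.8% of all genes and 34% of the brighter ones. CD55, an inhibitor of complement on the apical surface, was upregulated (log2FC = 0.51, FDR = 0.00163 from limma). The tight junction gene CLDN1 was downregulated (-0.62, FDR = 2.08e-04). The mucin gene MUC3A had a log2FC of -0.18 (FDR = 0.355).

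Promoter letters were tallied against these calls as a description. ACGTG occurred in the 250 bases before the start of 33.3% of 12 upregulated, 36.4% of 22 downregulated and 53.3% of 45 other hypoxia genes with an entry, those of the set of 10 that were measured included. The share was 18.7% over all promoters. Either ACGTG or GCGTG occurred in 75% of the upregulated, 68.2% of the downregulated and 68.9% of the other hypoxia genes. That share was 43.1% over all promoters.

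Markers of the labelled cell type were present. Of 10 epithelial markers 9 had mean levels above 5, and their mean per array lay between 7.96 and 8.28 in the gut-on-chip and between 8.24 and 8.38 in the Transwell inserts. KRT18 was upregulated (log2FC = 0.98) and VIL1 (-1.01), CDX2 (-0.53) and LGALS4 (-1.72) were downregulated. Of 8 measured markers of immune, endothelial, fibroblast and muscle cells, 5 were below the array median level and only LUM exceeded 5. Their mean per array lay between 2.68 and 2.79 in the gut-on-chip and between 2.38 and 2.58 in the Transwell inserts. The endothelial gene CDH5 was upregulated, with a mean of 3.95 in the gut-on-chip against 2.11 in the Transwell inserts (log2FC = 1.84, FDR = 1.19e-04 from limma), and the immune marker PTPRC was at 1.35 in the gut-on-chip against 1.51 in the Transwell inserts. The part of these shifts in the changes of the hypoxia genes was not tested.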

How the data were processed

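RNA of 8 samples, 4 from the gut-on-chip and 4 from Transwell inserts, had been hybridised to 1 array each. The deposited values are log2 levels that the authors made with RMA, which corrects background, normalizes quantiles between arrays and summarises probes. For the version of RMA used, the sources read here give nothing. The methods describe a custom definition with 1 probe set per gene, whereas the table holds 53617 probe sets, so values need not equal those of the paper. The platform annotation gave 23866 probe sets 1 symbol, 1852 several and 27899 none, and only the first kind was named. Entrez identifiers matched 22560 of them to current genes.

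Each probe set was fitted in limma 3.58.1 (R 4.3.3), its variance moderated toward a prior that follows mean level (loess, span 0.3), after the methods. Prior and residual degrees of freedom were 3.9 and 6. FDR is the two-sided p after Benjamini-Hochberg adjustment across the 53617 probe sets, and its threshold was 0.01. The code was tested on simulated data. The number of arrays limits the precision, and the files hold no detection calls.

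The genes, lists and role groups were chosen with earlier results of these data known. Genes named in the text are the 10 of the set, all HIF regulators and, for each other role, up to 2 of the largest increases and decreases that passed and the brightest gene that did not, besides the 3 nearest profiles of ADM and of NDRG1. Exceptions are named as such. The alternatives were other moderation, another normalization, median centring, filters on probe sets, array weights, a replicate block, another threshold, averaged probe sets and each array left out.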

Additional observations from a re-analysis of the deposited data

Results flagged for a closer look

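In groups of 4 arrays, a value standing apart from the other 3 by more than Dixon's 95% criterion was found in 6 of the 102 groups examined, where chance gives about 1 in 20. None concerned the 8 measured genes of the set. In the gut-on-chip, LONP1 was at 7.59 in replicate 3 and at 7.13 to 7.17 in the other arrays, and P4HA1 was at 11.11 in replicate 1 and at 11.23 to 11.24 in the others. In the Transwell inserts, STC2 was at 8.89 in replicate 2 and at 8.59 to 8.63 in the others, and SIAH2 was at 5.63 in replicate 4 and at 5.79 to 5.82 in the others. CD55 was at 7.49 in Transwell replicate 4 and at 7.66 to 7.69 in the others, and CLDN1 was at 9.34 in the same array and at 9.40 to 9.41 in the others.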

How the results depend on the processing

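No log2FC of a called gene of the set changed sign under the alternatives tried. The calls of EPAS1, VEGFA and NDRG1 held under all of them. Those of EGLN1 and ADM did not, so that with 1 array left out between 3 and 5 of the 8 measured genes passed, of which between 1 and 2 upward. The lower counts arose without Transwell replicate 2, 3 or 4 or without gut-on-chip replicate 4, and without Transwell replicate 1 only EGLN1 was lost. Fewer arrays enter those fits, and the log2FC stayed between -0.57 and -0.43 for EGLN1 and between 0.63 and 0.84 for ADM. Outside the set, among the fits with 1 array left out, the call of FLT1 held only without gut-on-chip replicate 1. In these fits the call of P4HA1 held only without gut-on-chip replicate 1 or Transwell replicate 4. In them the call of NFYC-AS1 held only without Transwell replicate 2. The call of ERCC4 was lost without Transwell replicate 2, 3 or 4, that of RNF14 without Transwell replicate 4 and that of ZC3H18-DT without Transwell replicate 1. ARNT and PDGFB, which missed the threshold, passed in fits over fewer features (1-symbol probe sets, or 1 average per gene). ARNT also passed with only probe sets above the median level (FDR = 0.00719 from limma). It passed as well after quantile normalization again (FDR = 0.00957) and without gut-on-chip replicate 1 (FDR = 0.00799). With both probe sets of HIF1A averaged its log2FC was -0.10, in place of 0.09, and neither passed. At an FDR under 0.05, 8259 probe sets passed in place of 5128, 4510 upward in place of 2765 and 3749 downward in place of 2363, and the wider list had 16 upward calls in place of 10.

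With replicate number as a block, 3350 probe sets passed and 1763 of them upward. Arrays of the same number did not deviate together (correlations of -0.08 to -0.0019 over 4 pairs), and 0 of 8 arrays correlated best with the array of its own number, so the number is not taken to pair the samples. The block ended the call of EGLN1 (FDR = 0.0127) and of no other gene of the set. Among the genes outside the set that were named by rule, it ended those of FLT1, BNIP3L, ERO1A, RAB20, P4HA1, NFYC-AS1 and ZC3H18-DT. The wider list then had 7 upward and 22 downward calls, in place of 10 and 25. Dim genes such as EGLN3 lie near the array medians, where small changes cannot be resolved.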
